A study of Arabidopsis thaliana with 4 samples.

Results

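The cytochrome P450 genes described here are the 23 probe sets whose single gene symbol in the platform annotation begins with CYP, followed by a family number of 2 or 3 digits and a subfamily letter. They are 23 of 22746 probe sets on the array, counted without 64 Affymetrix controls, and the symbol alone chose them. Of these, 19 belong to subfamily CYP71B. The other 4 are CYP51G2, CYP78A9, CYP79A2 and CYP84A4, each the only member of its family. RefSeq (TAIR10.1) gives a symbol of this form to 236 genes, 36 of them CYP71B, and the platform annotation ties a probe set of its own to 23 of the 236. The rest of the superfamily was not analysed here, since 8730 probe sets carry no symbol in that annotation and 503 carry several. Cyclophilins, which share the letters CYP, carry no subfamily letter and stayed outside, as did the P450 gene CYP718.

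Cytochrome P450 enzymes hold a heme group through a cysteine and use molecular oxygen to oxidize small molecules. In plants most of them sit in the membrane of the endoplasmic reticulum and receive electrons from NADPH-cytochrome P450 reductases. They take part in the synthesis of lignin, glucosinolates, camalexin, wax, cutin, sterols and carotenoids, and make or inactivate most plant hormones. In Arabidopsis many of their genes arose by tandem duplication, and subfamily CYP71B is one of the largest. Its best-known enzyme, CYP71B15 (PAD3), makes camalexin and is not among the 23. For most of the other CYP71B genes no reaction is named here.

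Total RNA came from the aerial parts of 10-day-old Arabidopsis thaliana seedlings, grown on sucrose-containing agar in continuous light, and was hybridized to ATH1 arrays. The wild type and the eif3h-1 mutant, which carries a T-DNA insertion that truncates the h subunit of initiation factor eIF3, gave 2 arrays each. Only this allele was used, and the ecotype of the array seedlings was not stated in the study's methods, which name Wassilewskija for reporter lines made in eif3h-1 plants. Each of the 2 experimental repeats holds 1 mutant and 1 wild-type array from a separate RNA preparation. The arrays of a repeat share a hybridization day and a scanner in the array headers, and the repeats share neither, so a repeat and its day cannot be told apart.

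Deposited intensities were linear MAS 5.0 signals, which the authors had brought to the same trimmed mean on each array. Medians over all probe sets were 200.4 to 220.4. The targeted gene TIF3H1 had signals of 245.3 and 431.9 in the mutant against 1363.3 and 1020.5 in the wild type. Rubisco activase (RCA), a leaf gene and the only one of 6 green-tissue markers with a named probe set, had 28004.5 to 58204.1, in the top percent of each array. EXPA7, a root hair gene and the only one of 6 root markers with one, had 61.8 to 128.2. Detection calls were not in the table, so signals could not be judged against background. A brighter probe set need not mean a more abundant transcript, so levels are set against each other only within a gene. In these whole shoots, fewer cells of a type and less RNA per cell cannot be told apart.

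Most of the 23 P450 genes gave dim signals. The median over the 23 was 62.7 (eif3h mutant) and 89.3 (wild type) in repeat 1, then 75.4 (eif3h mutant) and 94.1 (wild type) in repeat 2. Only 5, 5, 6 and 5 of the 23 lay above the median of all probe sets on these arrays, in the order eif3h repeat 1, eif3h repeat 2, wild type repeat 1 and wild type repeat 2. The geometric mean over the 4 arrays ran from 4.65 for CYP71B31 to 928 for CYP71B6. By this mean, 8 genes lay under 50, 10 lay from 50 to under 200, and 5 lay at 200 or more. The test across probe sets was limited to the brightest 38.8%, with a geometric mean of at least 327.4. CYP71B6, CYP71B28 and CYP71B34 were the 3 members in it. The nearest on either side of that limit were CYP71B34 (390) and CYP71B26 (308).

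**Figure D1:**
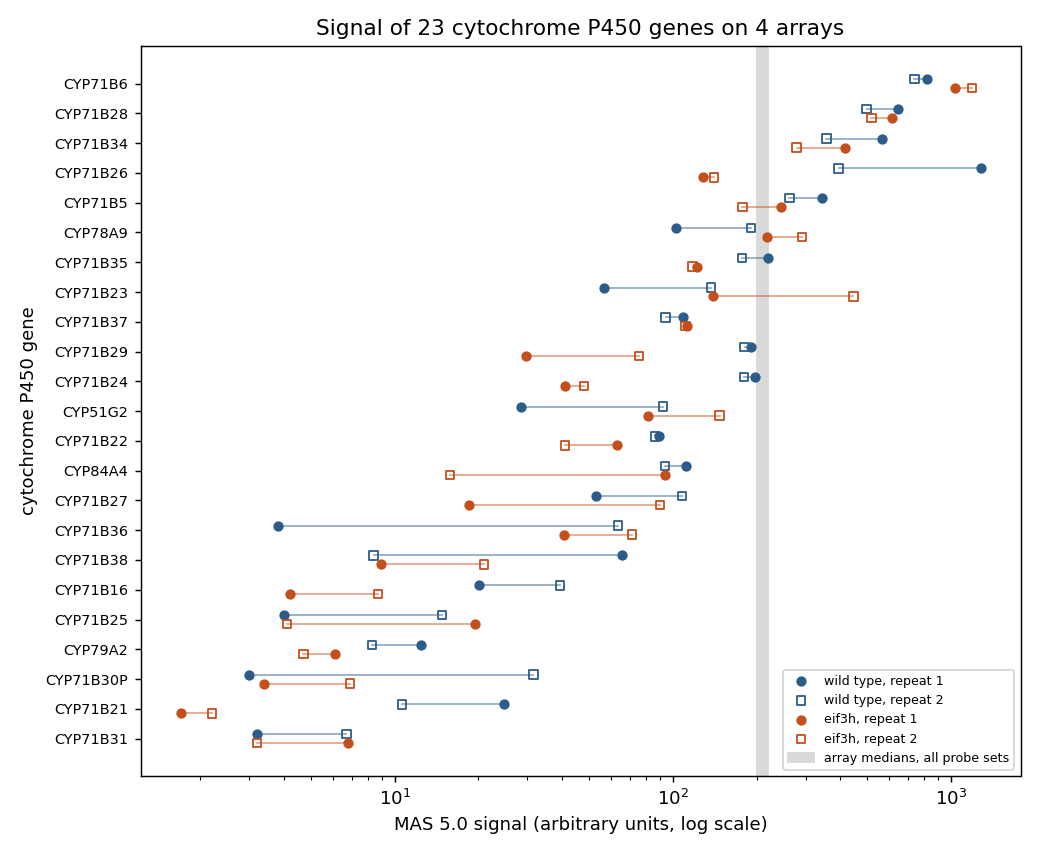
MAS 5.0 signal of the 23 cytochrome P450 genes (rows, ordered by geometric mean) on the 4 arrays, on a log axis. Blue marks the wild type and orange the eif3h mutant, filled circles repeat 1 and open squares repeat 2, lines join the arrays of a genotype, and the grey band spans the array medians of 200.4 to 220.4.

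More of these 23 P450 genes were lower than higher in the eif3h mutant. As 19 of them are CYP71B genes, the 4 others are too few to place the excess in that subfamily. The signal was lower in both repeats for 12 of the 23 (30.2% of all probe sets) and higher in both for 6 (34.1% of all probe sets). It differed in direction for 5 (35.7% of all probe sets). Of the 19 CYP71B genes, 10 were lower in both and 4 higher. Of the 4 others, 2 were lower in both and 2 higher. Both mutant arrays lay below both wild-type arrays for 9 (19.2% of all probe sets) and above both for 4 (22.1% of all probe sets). A fold of 2 or more below the wild type was seen in both repeats for 5, all CYP71B genes, against 3.81% of all probe sets. The same fold above it was seen for 1, CYP71B23, against 3.47%. With 50 added to each signal, which shrinks ratios of dim probe sets, these counts were 2 and 0. The shares of all probe sets were not computed with that offset. CYP71B16 and CYP71B21, among the 5, had a geometric mean under 50. In that range, without the offset, 8.01% of all probe sets were at least 2-fold lower in both repeats. The median log2 ratio of mutant to wild type over the 23 was -0.72, with -0.43 in repeat 1 and -0.59 in repeat 2, where the mean ratio of all probe sets had a median of 0.03. It was -0.29 without the mutant array of repeat 2. The median of the mean ratio was -0.72 over the 19 CYP71B genes and -0.04 over the 4 others. These are descriptions without a test. Genes of one subfamily share sequence and are not independent, and probe sequences were not used here.

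No P450 gene passed the test. Among the 3 members in limma's fit with the repeat as a block, none was called lower (9.68% of all tested probe sets were) and none higher (8.49% were) at an adjusted p under 0.05. At an unadjusted p under 0.05, none was lower (17.3% of the tested probe sets) and 1 was higher (18.7% of the tested probe sets). With 2 arrays against 2, an exact permutation test over arrays cannot give a two-sided p below 0.333. The p-values rest on 2 preparations and do not measure their spread for 1 gene alone. The variance was drawn mostly from all tested probe sets, with 6.58 prior degrees of freedom against 1 residual.

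**Figure D2:**
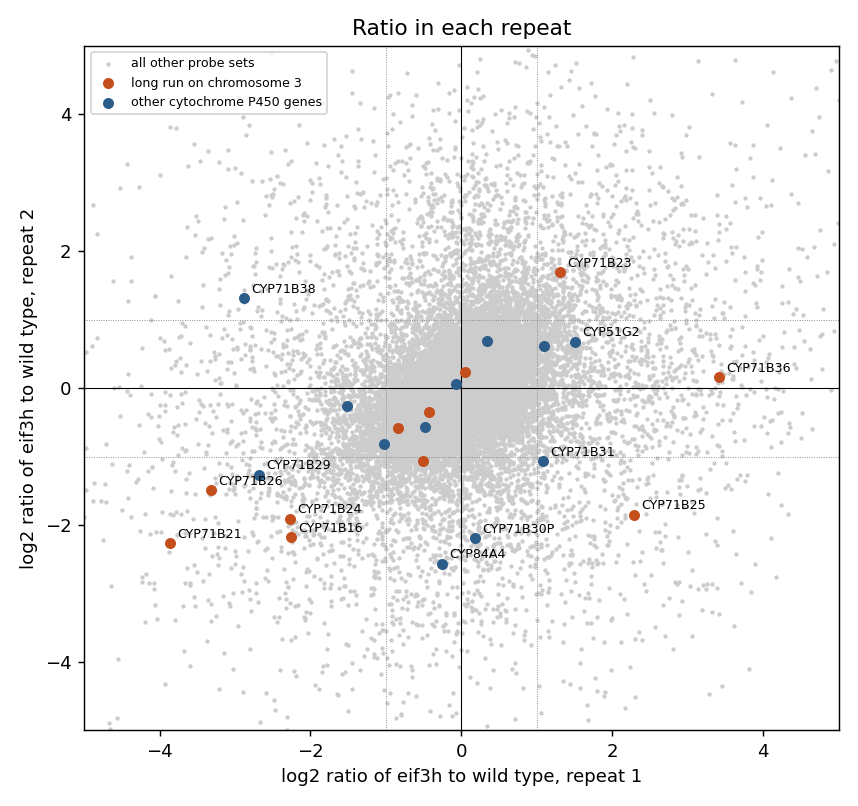
Log2 ratio of the eif3h mutant to the wild type in repeat 1 (x axis) and repeat 2 (y axis), with all other probe sets in grey and dotted lines at 2-fold. Probe sets beyond 5 on either axis are not drawn. CYP71B16, CYP71B21, CYP71B24, CYP71B26 and CYP71B29 lie beyond 2-fold lower in both repeats and CYP71B23 beyond 2-fold higher.

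CYP71B6 had the highest mean signal of the members and was higher in both mutant arrays than in both wild-type arrays. The enzyme is known to metabolize indole-3-acetonitrile, an intermediate between tryptophan and indole defence compounds. Its signal was 1035.4 and 1186.1 in the mutant and 820.1 and 737.8 in the wild type. The groups did not overlap. The log2 ratio was 0.34 in repeat 1 and 0.68 in repeat 2, with a mean of 0.51 (standard error 0.18), and limma gave an adjusted p of 0.0906. Over the alternative fits its adjusted p ran from 0.0567 to 0.607 and its mean from 0.41 to 0.61.

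CYP71B28 and CYP71B34, the other members in the test, differed little between the genotypes. CYP71B28 had 612.4 and 516.7 in the mutant and 641.3 and 496.1 in the wild type. The groups overlapped, the arrays of repeat 2 being lower in both genotypes, and the mean log2 ratio was -0.0039 (standard error 0.17, adjusted p = 0.988 from limma). CYP71B34 had 416.8 and 278.1 in the mutant and 562.5 and 355.7 in the wild type. It was lower in the mutant within each repeat, by 1.35-fold and 1.28-fold, although the mutant array of repeat 1 exceeded the wild-type array of repeat 2. Its mean log2 ratio was -0.39 (standard error 0.17, adjusted p = 0.147 from limma).

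Many of the members lie side by side on chromosome 3. In the gene order of RefSeq, 11 CYP71B genes from CYP71B16 (At3g26150) to CYP71B37 (At3g26330) form a run in which no 2 neighbouring members are more than 6 genes apart. A run was taken as members with at most 10 genes between them. Within the run stand 7 further P450 genes that are no members and 6 other genes. CYP71B19 and CYP71B20, among the 7, share 1 probe set, which was left out because it carries both names. Shorter runs hold CYP71B27, CYP71B28 and CYP71B29 on chromosome 1 and CYP71B5, CYP71B30P and CYP71B31 further along chromosome 3. The 6 other members stand alone.

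The long run held 4 of the 5 genes that were at least 2-fold lower in both repeats, and also CYP71B23, which was at least 2-fold higher in both. Its 11 genes comprised 7 with lower signals in the mutant in each repeat, 3 with higher signals and 1 whose direction differed. Among the 12 members outside it the corresponding numbers were 5, 3 and 4. The median log2 ratio was -0.72 in the run and -0.65 outside it. No test of this difference was made.

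**Figure D3:**
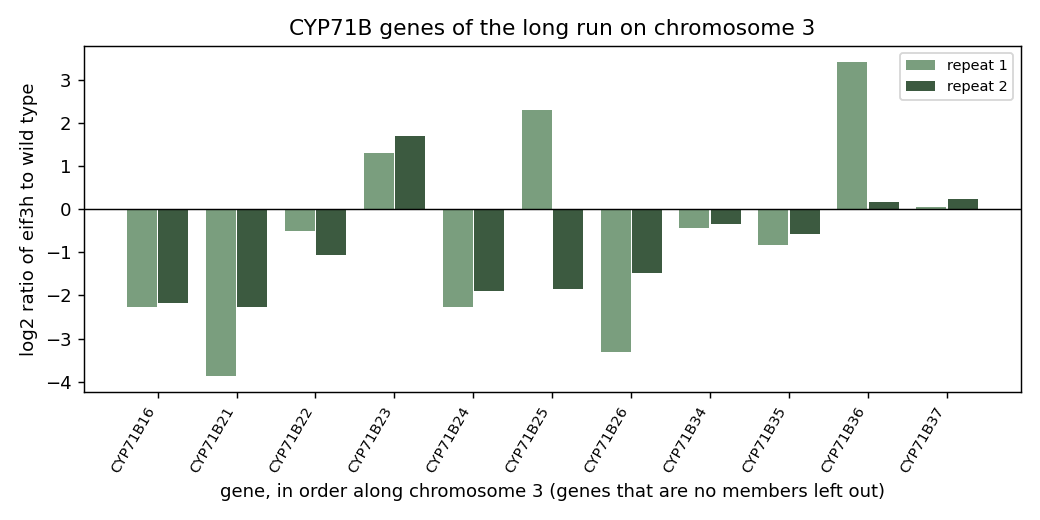
Log2 ratio of the eif3h mutant to the wild type in repeat 1 (light bars) and repeat 2 (dark bars) for the 11 members of the long run, in their order along chromosome 3. CYP71B23 is higher in both repeats (1.30 and 1.70) and has CYP71B22 and CYP71B24, which are lower in both, as the members before and after it.

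CYP71B26 (At3g26290) showed the widest gap among members whose signal exceeded the array median in the wild type. It had 127.8 and 140.5 in the mutant and 1274.3 and 394.2 in the wild type. Both mutant arrays were low and close together, while the wild-type signal of repeat 2 was 0.31 of that of repeat 1. The ratio was thus 9.97-fold lower in repeat 1 and 2.81-fold lower in repeat 2, a mean log2 ratio of -2.40 ± 1.29 (SD, n = 2 repeats).

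CYP71B24 (At3g26230) was low in the mutant to a similar extent in each repeat. Its signal was 40.8 and 47.8 in the mutant and 196.5 and 179.7 in the wild type, with no overlap. It was 4.82-fold lower in repeat 1 and 3.76-fold lower in repeat 2, and the mean log2 ratio was -2.09 ± 0.25 (SD, n = 2). The wild-type signals lay just below the array medians.

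CYP71B16 (At3g26150) and CYP71B21 (At3g26190), at the start of the run, were also lower in both repeats but at very low signals throughout. CYP71B16 had 4.2 and 8.7 in the mutant and 20.1 and 39.3 in the wild type, with log2 ratios of -2.26 and -2.18. CYP71B21 had 1.7 and 2.2 in the mutant and 24.8 and 10.6 in the wild type, with log2 ratios of -3.87 and -2.27. The groups did not overlap for either gene, but all of these signals were at percentile 17.6 of their array or lower, where the presence of transcript could not be judged.

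CYP71B23 (At3g26210) went the other way, although the members before and after it in the run were lower. CYP71B3, which is no member, stands between it and CYP71B24. Its signal was 139.8 and 444.7 in the mutant and 56.6 and 137.2 in the wild type. Both mutant arrays exceeded both wild-type arrays, although the lower mutant array and the higher wild-type array were nearly equal. It was 2.47-fold higher in repeat 1 and 3.24-fold higher in repeat 2 (log2 ratios of 1.30 and 1.70, SD 0.28, n = 2). Its level also differed between the repeats, by 3.18-fold in the mutant and 2.42-fold in the wild type, with repeat 2 the higher. The mean log2 ratio was therefore 0.67 without the mutant array of repeat 2 and 0.86 without the wild-type array of repeat 1, both under 2-fold, and 2.34 without the mutant array of repeat 1.

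CYP71B22, CYP71B34 and CYP71B35 were lower in both repeats by smaller amounts. CYP71B22 had 62.7 and 41.0 in the mutant and 89.3 and 86.2 in the wild type. CYP71B35 had 121.9 and 117.6 in the mutant and 218.8 and 176.9 in the wild type. Neither gene's groups overlapped, and the mean log2 ratios were -0.79 ± 0.40 and -0.72 ± 0.18 (SD, n = 2).

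The last genes of the run and CYP71B25 gave no repeatable difference or a small one. CYP71B37 had 112.7 and 110.9 in the mutant and 109.0 and 94.1 in the wild type, log2 ratios of 0.05 and 0.24. CYP71B36 had 40.5 and 71.1 in the mutant and 3.8 and 63.5 in the wild type, so that its ratio of 10.7-fold in repeat 1 rested on 1 wild-type array and was 1.12-fold in repeat 2. CYP71B25 stayed below 20 on all arrays, with log2 ratios of 2.29 and -1.85 that opposed each other.

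In the run on chromosome 1, CYP71B29 (At1g13100) was lower in both repeats beside CYP71B28, which was not. CYP71B29 had 29.7 and 75.4 in the mutant and 190.3 and 181.1 in the wild type, with no overlap. It was 6.41-fold lower in repeat 1 and 2.40-fold lower in repeat 2 (log2 ratios of -2.68 and -1.26, with a mean of -1.97). The wild-type arrays were close to each other and the mutant arrays were not. CYP71B27 (At1g13070), which RefSeq annotates as a transcribed pseudogene, had 18.5 and 89.7 in the mutant and 53.1 and 107.9 in the wild type. It was 2.87-fold and 1.20-fold lower in the mutant, but repeat 2 was 4.85-fold (mutant) and 2.03-fold (wild type) above repeat 1, and the groups overlapped.

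The run further along chromosome 3 held a gene with similar ratios in both repeats and a pair near the floor of the arrays. CYP71B5 (At3g53280) had 244.6 and 177.5 in the mutant and 342.6 and 262.2 in the wild type. The groups did not overlap, and the log2 ratios of -0.49 and -0.56 were nearly equal (mean -0.52 ± 0.05, SD, n = 2). CYP71B31 (At3g53300), known to oxidize the monoterpene alcohol linalool in flowers, had 6.8 and 3.2 in the mutant and 3.2 and 6.7 in the wild type. CYP71B30P (At3g53290), named as a pseudogene but annotated as protein-coding by RefSeq, had 3.4 and 6.9 in the mutant and 3.0 and 31.5 in the wild type. Both differed in direction between the repeats, as did CYP71B38 (At3g44250), which stands alone and had 8.9 and 20.9 in the mutant and 65.6 and 8.4 in the wild type.

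Outside CYP71B, CYP78A9 (At3g61880) gave the highest mean signal. CYP78A enzymes promote organ growth, and CYP78A9 is known for its effect on fruit and seed size. It had 218.1 and 291.3 in the mutant and 102.4 and 190.5 in the wild type. Both mutant arrays exceeded both wild-type arrays, and the ratio was 2.13-fold in repeat 1 and 1.53-fold in repeat 2 (mean log2 ratio 0.85 ± 0.34, SD, n = 2).

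CYP51G2 (At2g17330) was also higher in both repeats. It is a relative of the sterol 14-demethylase gene CYP51G1, and RefSeq annotates it as a transcribed pseudogene. It had 81.0 and 147.0 in the mutant and 28.5 and 91.9 in the wild type. The groups overlapped, because the wild-type array of repeat 2 exceeded the mutant array of repeat 1, and the log2 ratios were 1.51 and 0.68.

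CYP84A4 and CYP79A2 were lower in both repeats at low signals. CYP84A4 (At5g04330), an enzyme of arabidopyrone synthesis and a relative of ferulate 5-hydroxylase, had 94.0 and 15.8 in the mutant and 111.8 and 93.7 in the wild type. Its difference lay almost wholly in repeat 2 (log2 ratios of -0.25 and -2.57). CYP79A2 (At5g05260), which converts phenylalanine to the oxime from which benzylglucosinolate is made, had 6.1 and 4.7 in the mutant and 12.4 and 8.3 in the wild type. Its groups did not overlap, with log2 ratios of -1.02 and -0.82, but all its signals were among the dimmest on the arrays.

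The pathways around these genes could not be filled. Of 102 genes on lists of P450 pathways and electron donors, 6 had a named probe set, and these were members themselves: CYP84A4, CYP79A2, CYP71B6, CYP51G2, CYP71B31 and CYP78A9. None of the 9 listed electron donor genes, which encode P450 reductases and cytochrome b5 proteins, and none of the 8 listed brassinosteroid genes had one. The other 96 were not analysed here.

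The repeats differed most where the signal was lowest. For the 8 P450 genes with a geometric mean under 50, the log2 ratios of the repeats differed by a median of 2.26, against 1.53 for all probe sets in that range. For the 10 from 50 to under 200 the median difference was 0.52, against 0.61, and for the 5 at 200 or more it was 0.13, against 0.28. All of the 10 genes in the middle range had the same direction in both repeats, 6 lower and 4 higher. Of the 10, 2 were at least 2-fold lower in both and 1 at least 2-fold higher. In that range 28.0% of all probe sets were lower in both repeats, 31.4% higher in both, and 2.55% at least 2-fold lower in both. The share at least 2-fold higher in both was not computed for that range.

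**Figure D4:**
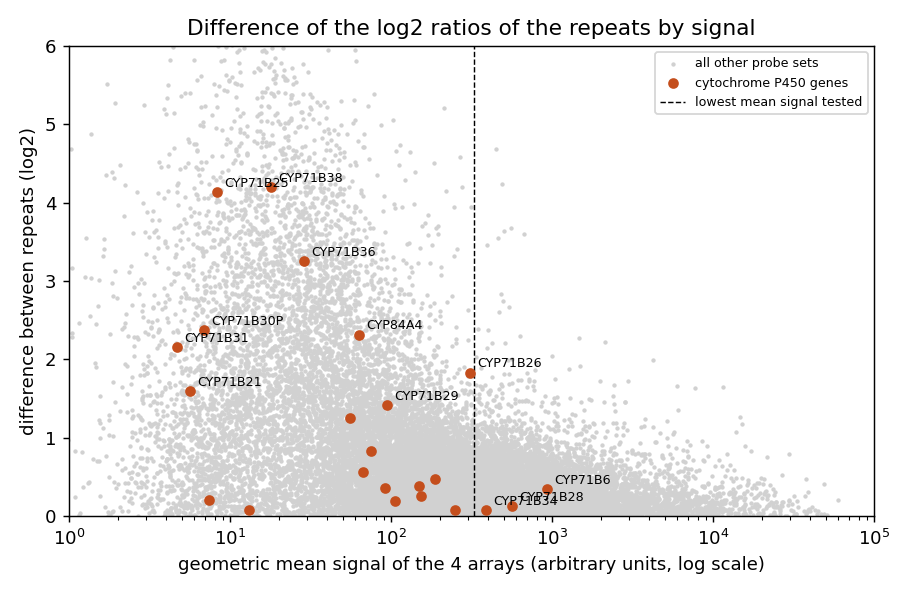
Absolute difference between the log2 ratios of the repeats (y axis) against the geometric mean signal of the 4 arrays (x axis, log scale) for the 23 P450 genes (orange) and all other probe sets (grey). Differences above 6 and probe sets outside the x axis are not drawn. The dashed line marks the lowest mean signal tested (327.4), and CYP71B26 with 308 lies just left of it.

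Further fits held all 23 members, and none of them was called in them. In limma's fit over all probe sets with the repeat as a block, 0% of probe sets were called lower and 0% higher, so this count says nothing about the members. At an unadjusted p under 0.05, 6 members were lower (6.22% of all probe sets) and 1 was higher (5.58% of all probe sets). The 6 were CYP71B16, CYP71B21, CYP71B24, CYP71B26, CYP71B29 and CYP79A2, and the 1 was CYP71B23. A second fit, chosen after seeing the data, added 50 to each signal and let the prior variance follow the intensity. It called 2.02% of all probe sets lower and 1.33% higher, and none of the 23. The lowest adjusted p values from limma were 0.0617 for CYP71B26, 0.0662 for CYP71B24, 0.0984 for CYP71B29 and 0.103 for CYP71B23. At an unadjusted p under 0.05 it held 3 members lower (9.88% of all probe sets) and 3 higher (10.9% of all probe sets). CYP71B24, CYP71B26 and CYP71B29 were the lower ones, and CYP71B6, CYP71B23 and CYP78A9 the higher ones. The dim CYP71B16, CYP71B21 and CYP79A2 were no longer among them.

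Between the repeats, P450 genes moved in either direction. From repeat 1 to repeat 2 the signal was higher in both genotypes for 7 members, lower in both for 8, and opposite for 8. CYP71B34 was lower in repeat 2 by a like amount in the mutant (0.67 of repeat 1) and the wild type (0.63), and CYP71B16 higher by a like amount (2.07-fold and 1.96-fold). CYP71B26, by contrast, was 1.10-fold in the mutant and 0.31-fold in the wild type.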

How the data were processed

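The authors hybridized total RNA to ATH1 arrays and computed signals with the Affymetrix MAS 5.0 software. The deposited intensity is that signal, background-corrected and scaled by the authors to a common mean (500.0 here, after trimming 2% at each end), and 1 array was made per sample. Log2 signals of the 8831 probe sets with the highest mean were fitted with limma 3.58.1 (R 4.3.3; lmFit, eBayes) with terms for repeat and genotype, and p-values were adjusted over all of them (Benjamini-Hochberg). That number is the one left by the study's own filter on detection calls, which were not used here. The fit has 1 residual and 6.58 prior degrees of freedom. The study's methods compare the genotypes replicate by replicate, and arrays of the same replicate number were hybridized on the same day. Repeat was therefore the block. Across tested probe sets, the changes from repeat 1 to repeat 2 in mutant and wild type had a correlation of 0.53.

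Members were named through the platform annotation and matched to RefSeq by gene ID (23 of 23). TIF3H1 was named through the study's gene list. The members, the lists and the rule for named genes (all called members, up to 4 per pathway list, the extremes of each larger family, and repeatable dim members) were chosen with earlier results of these data known. As few members were found, all 23 are named. The fits were tested on simulated data. Changes were simulated only among the 5000 brightest probe sets, which hold CYP71B6 alone of the members, so dim signals were not covered. The number of arrays limits the precision. Tables and figures were made with Python 3.11.15, pandas 2.3.3 and matplotlib 3.10.9.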

Additional observations from a re-analysis of the deposited data

How the results depend on the processing

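No member was called in limma's fit or in any of 14 alternatives, which held 1 to 23 members. This includes the fit without the replicate block, with 0 called lower and 0 higher. At an unadjusted p under 0.05, 0 to 7 members passed. The 7 were of 23 in limma's fit over all probe sets, where 6.22% of all probe sets were lower and 5.58% higher. In the main fit 1 of 3 passed, where 17.3% of tested probe sets were lower and 18.7% higher. Over all tested probe sets, 855 were called lower and 750 higher, against 67 and 14 without the replicate block. With all probe sets, an offset of 50 and an intensity trend, the counts were 459 and 302 (19 and 6 without the block). They were 0 and 0 with all probe sets alone. The fits without 1 array also dropped the block and left 1 array in a genotype, so their counts are not given. Since no member was called, the block changed no call. With 2 arrays against 2 and 1 residual degree of freedom, these zeros do not show that the levels were equal. The median log2 ratio of the 3 tested members was -0.0039. As each repeat holds 1 array of each genotype, it is necessarily the same without the replicate block. It was -0.72 with all probe sets in the fit (then 23 members), 0.51 among the 5000 brightest (then only CYP71B6), and -0.19 to 0.18 when 1 array was left out. The 5 genes at least 2-fold lower in both repeats became 2, CYP71B24 and CYP71B26, with 50 added to each signal. They became 7 at a 1.5-fold threshold and 3 at a 3-fold threshold. The 1 gene at least 2-fold higher became 0 with 50 added, 3 at 1.5-fold and 0 at 3-fold. Shares of all probe sets were not computed for these alternative counts. Over all 23, the median of -0.72 was -0.35 with 50 added and -0.72 to -0.29 without 1 array, the latter without eif3h replicate 2. Without wild type replicate 1, CYP71B26 had a log2 ratio of -1.56, and CYP71B23 ranged from 0.67 to 2.34 without 1 array. The sign of the mean ratio was kept in 16 of the 23 through 8 settings of scaling, offset and arrays, and changed in 7 (CYP71B25, CYP71B27, CYP71B28, CYP71B30P, CYP71B31, CYP71B36 and CYP71B38). An offset shrinks ratios of low signals by arithmetic, and it reversed none of these 7 signs. The causes of the changes were not tested. Detection calls were not used, so low signals could not be told from background.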
